A study of Homo sapiens with 6 samples.

Results

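The genes described here are 7 sensors and effectors of the unfolded protein response: the sensors EIF2AK3 and ATF6, the chaperone-side genes SDF2L1, PDIA4, DNAJB9 and DNAJC3, and the degradation gene EDEM1. They were taken by symbol from a table of 9717 gene symbols. Each of the 7 had 1 row, a single RefSeq transcript, and all 7 had enough reads to be tested. RNA was sequenced from Huh7, an established human hepatocellular carcinoma cell line grown in DMEM, 1 week after puromycin selection. One group carried a scrambled shRNA (3 libraries) and the other an ABL1 shRNA (3 libraries), so both groups carried a hairpin and had passed the selection. ABL1 encodes a non-receptor tyrosine kinase. Neither the hairpin sequence nor the origin of the replicates (separate cultures or 1) is stated, so p-values here describe library-to-library spread, which may be purely technical.

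The unfolded protein response adjusts the folding capacity of the endoplasmic reticulum (ER) when unfolded proteins collect in its lumen. The kinase PERK (EIF2AK3) phosphorylates the translation factor eIF2 and so slows protein synthesis. ATF6 travels to the Golgi, where the proteases of MBTPS1 and MBTPS2 release its transcription factor part. The kinase and nuclease IRE1 (ERN1) splices the mRNA of the transcription factor XBP1. Hepatocytes export large amounts of plasma protein and rely on this pathway to match chaperones and ER-associated degradation to the load. Its activity is set by phosphorylation, cleavage and splicing, none of which a transcript level measures.

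Both of these sensor genes and 3 of the effectors rose in the ABL1 knockdown libraries, and the other 2 effectors fell. EIF2AK3 was 1.81 times and EDEM1 1.59 times as high as in the scrambled libraries, and DNAJB9, DNAJC3 and ATF6 rose by smaller ratios of 1.26, 1.22 and 1.19. SDF2L1 fell to 0.528 and PDIA4 to 0.632 of the scrambled mean. In limma's test with Benjamini-Hochberg adjustment over all transcripts and a threshold of 0.05, 5 of the 7 rose and 2 fell. Of the 8600 transcripts tested, 51.9% passed, with 24.5% higher and 27.4% lower. The groups of libraries did not overlap for any of the 7 genes, as was so for 58.9% of all transcripts. With just over 1 in 2 transcripts called, a call on one of these genes is not particular to the pathway.

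Promoter sequences are shown for SDF2L1, which fell most in proportion, and for EIF2AK3 and EDEM1, which rose most, because ER stress responses are classically read through short promoter elements. They come from RefSeq (GRCh38.p14), and 1 or more windows matched each of the 7 genes. The letters run 5′ to 3′ on the gene's strand and stop before the first transcribed base in GENCODE 29. Capitals mark the half-sites CCACG and CCAAT on either strand (CGTGG and ATTGG where the match lies on the other strand). The SDF2L1 stretch is chr22:21642052-21642260 (plus strand), the EDEM1 stretch chr3:5187457-5187645 (plus strand) and the EIF2AK3 stretch chr2:88627577-88627714 (minus strand).
SDF2L1: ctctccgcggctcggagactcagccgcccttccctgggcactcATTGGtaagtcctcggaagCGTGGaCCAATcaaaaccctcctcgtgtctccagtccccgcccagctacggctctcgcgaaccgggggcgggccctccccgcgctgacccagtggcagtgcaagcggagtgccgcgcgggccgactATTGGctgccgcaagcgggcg
EDEM1: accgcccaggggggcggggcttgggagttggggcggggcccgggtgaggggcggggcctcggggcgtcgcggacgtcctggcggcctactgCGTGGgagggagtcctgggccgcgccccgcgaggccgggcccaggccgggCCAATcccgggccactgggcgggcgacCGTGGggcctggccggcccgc
EIF2AK3: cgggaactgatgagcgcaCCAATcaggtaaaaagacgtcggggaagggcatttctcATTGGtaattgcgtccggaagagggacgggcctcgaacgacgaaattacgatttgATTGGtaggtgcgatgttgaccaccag

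Motifs were searched on both strands in the 250 bases before the RefSeq start of each gene. The ER stress response element ERSE, bound by ATF6 together with the CCAAT factor NF-Y, was spelled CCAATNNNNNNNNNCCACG, and its second form ERSE-II was spelled ATTGGNCCACG. SDF2L1 held an exact ERSE-II, on the minus strand 188 bases before the start, seen in the first sequence as CGTGGACCAAT. That element was in 0.0513% of 35116 promoter windows of the same length. No searched window of the 7 genes held an exact ERSE (0.074% of all windows), the core TGACGTGG of the XBP1-type element (0.6123%) or the C/EBP-ATF form TGATGNAA (3.14%). PDIA4 had 2 windows, and only that nearest the transcript's own first base was searched for all of these forms. The half-site CCACG, which lies within both ERSE forms, was in 5 of the 7 windows (33.51% of all), and CCAAT in 6 of 7 (32.01%). The DNAJB9 window lay wholly inside the GENCODE gene, and only the first 99 bases of the PDIA4 window lay before the gene start. The CCACG sites of both genes and the CCAAT site of DNAJB9 were therefore inside the gene. CCACG lay before the GENCODE start for SDF2L1, EDEM1 and DNAJC3 only. EIF2AK3 had CCAAT half-sites and no CCACG, and ATF6 had neither. A match is a description of letters and not a bound site.

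The sensor kinase PERK is encoded by EIF2AK3 (NM_004836, GRCh38 chromosome 2, 88556743 to 88627576, minus strand, 17 exons). The normalized count is the read count times the authors' scale factor for the library. EIF2AK3 had 191, 89.7 and 132 normalized counts in scrambled replicates 1, 2 and 3, against 226, 236 and 286 in knockdown replicates 1, 2 and 3. Every knockdown library lay above every scrambled one, and the scrambled libraries differed among themselves by more than 2-fold. The means were 138 ± 50.8 and 249 ± 32.0 (SD, n = 3 each). The log2 change was 0.91 (SE 0.22, 95% interval 0.43 to 1.39, limma adjusted p = 0.00397). The counts behind it were 80 to 229 reads in the scrambled and 209 to 277 in the knockdown libraries, the fewest of the 7 genes. An antisense gene, AC104134.1, covers 16.8% of the transcript's bases, and without a stated strand setting reads of the 2 cannot be told apart.

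ATF6, the membrane-bound transcription factor precursor (NM_007348, chromosome 1, 161766294 to 161964070, plus strand, 16 exons), moved least of the 7. Its normalized counts were 694, 844 and 846 with the scrambled hairpin, against 981, 987 and 875 with the ABL1 hairpin. The groups came close to each other, with knockdown replicate 3 just above scrambled replicates 2 and 3. The log2 change was 0.26 (SE 0.10, 95% interval 0.04 to 0.47, limma adjusted p = 0.0425). The call was lost when scrambled replicate 1 was left out (0.16, limma adjusted p = 0.176), and likewise knockdown replicate 1 (0.23, adjusted p = 0.129) or 2 (0.23, adjusted p = 0.109), and with a variance model without a mean trend (adjusted p = 0.119). With libraries scaled to equal totals the log2 change was 0.43.

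**Figure D1:**
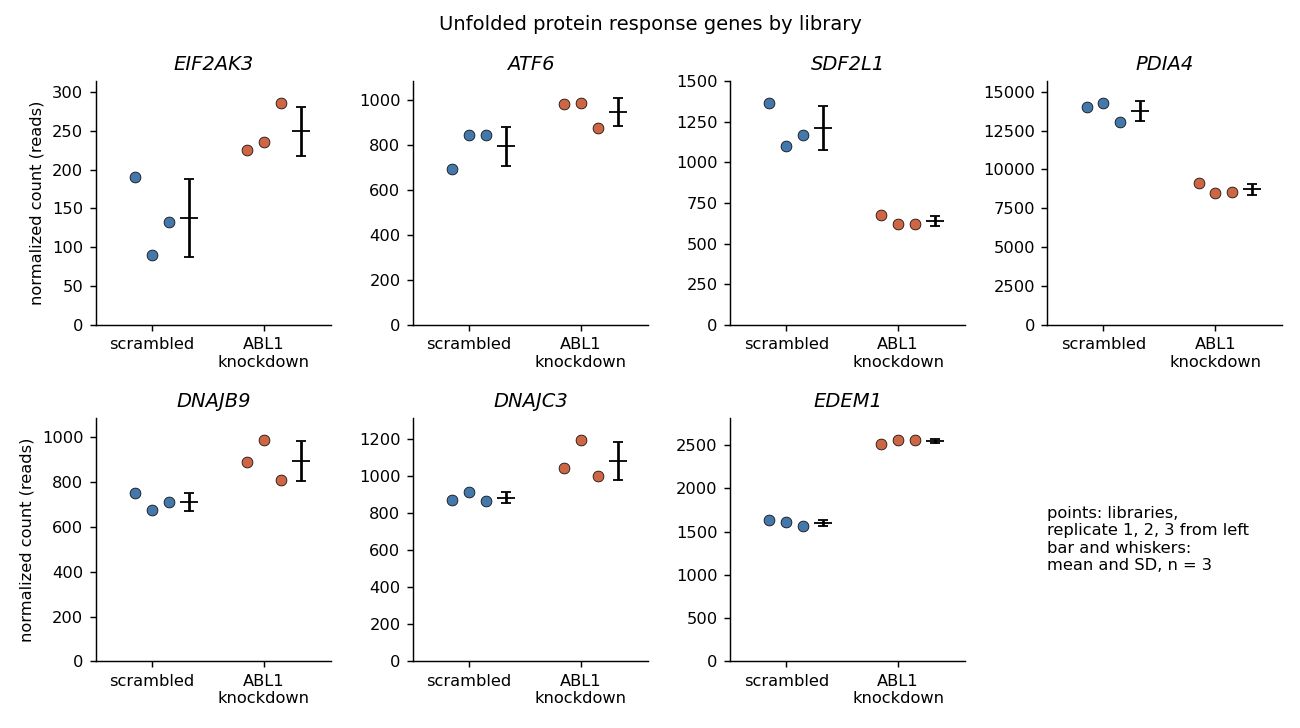
Normalized count (reads times the authors' scale factor, linear axis from 0) of the 7 genes in each library, blue for scrambled and orange for ABL1 knockdown, with mean and SD (n = 3) beside the points. EIF2AK3 spreads from 89.7 to 191 among the scrambled libraries, while EDEM1 spreads from 1567 to 1633.

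The third sensor, ERN1 (IRE1), was not among the 7 and moved the other way. It had 265 ± 27.0 normalized counts with the scrambled hairpin and 175 ± 14.5 with the ABL1 hairpin (SD, n = 3 each). Its groups did not overlap, and the log2 change was -0.60 (limma adjusted p = 0.00163). The proteases that release ATF6 both rose, MBTPS1 by 0.46 and MBTPS2 by 0.28 on the log2 scale. The call on MBTPS2 was lost without a mean trend in the variance model (adjusted p = 0.0549) and on leaving out knockdown replicate 2 (0.22, adjusted p = 0.0508), and its value was 0.45 with equal totals. EIF2S1, the eIF2 subunit that PERK phosphorylates, fell by 0.91. RTCB, the ligase that joins the XBP1 exons after IRE1 cuts them, rose by 0.31, and TRAF2, an adaptor that IRE1 recruits, fell by 0.55. With equal totals RTCB had 0.48. EIF2AK4, another eIF2 kinase and a sensor of uncharged tRNA, rose by 0.78 (adjusted p = 3.08e-06), in the same direction as EIF2AK3.

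SDF2L1 encodes an ER-lumen protein that works with the chaperone BiP and its cochaperone DNAJB11. NM_022044 (chromosome 22, 21642261 to 21644298, plus strand, 3 exons) had normalized counts of 1365, 1102 and 1168 in the scrambled libraries. In the knockdown libraries it had 675, 623 and 621. The highest knockdown library was thus well below the lowest scrambled one. The means were 1212 ± 137 and 639.6 ± 30.6 (SD, n = 3 each), a log2 change of -0.92 (SE 0.09, 95% interval -1.12 to -0.71, limma adjusted p = 5.18e-06). By size, 20.9% of all tested transcripts changed more, in either direction. Its paralog SDF2 rose by 1.74 on the log2 scale (adjusted p = 0.000152), from few reads: 15.3 ± 2.78 normalized counts in the scrambled libraries and 53.3 ± 6.76 in the knockdown.

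PDIA4 (ERp72), a protein disulfide isomerase, was the most abundant of the 7. NM_004911 (chromosome 7, 149003062 to 149028641, minus strand, 10 exons) had 14039, 14266 and 13059 normalized counts in the scrambled libraries. It had 9147, 8463 and 8536 in the knockdown libraries, so that the gap between the groups was several times the spread within either. The log2 change was -0.66 (SE 0.07, 95% interval -0.81 to -0.51, limma adjusted p = 6.85e-06). With quantile normalization the fall was smaller, -0.38 (limma adjusted p = 0.000176).

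DNAJB9 (ERdj4), a J-domain cochaperone of BiP that aids degradation of misfolded proteins and restrains IRE1, rose. Its transcript NM_012328 (chromosome 7, 108569568 to 108574850, plus strand, 3 exons) had 752, 672 and 709 normalized counts in the scrambled libraries. The knockdown libraries had 886, 987 and 809. Knockdown replicate 3 was the lowest of these and still above scrambled replicate 1. The log2 change was 0.33 (SE 0.09, 95% interval 0.12 to 0.53, limma adjusted p = 0.0111), and 0.50 with equal totals. That call stayed only just under the threshold without knockdown replicate 2 (0.25, limma adjusted p = 0.0472). The same held without a mean trend in the variance model (adjusted p = 0.0495). Exons of THAP5 and PNPLA8 on the opposite strand cover 6.7% and 3.6% of its bases.

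DNAJC3 (p58IPK), an ER cochaperone also known as an inhibitor of PERK, rose by a like amount. NM_006260 (chromosome 13, 95677139 to 95794989, plus strand, 12 exons) had 868, 915 and 866 normalized counts with the scrambled hairpin, against 1045, 1194 and 1001 with the ABL1 hairpin. Knockdown replicate 2 was the highest library both here and for DNAJB9. The log2 change was 0.29 (SE 0.09, 95% interval 0.10 to 0.47, limma adjusted p = 0.0148). That call was lost on leaving out knockdown replicate 2 (0.21, limma adjusted p = 0.0618) or scrambled replicate 3 (0.27, adjusted p = 0.0512), and with a variance model without a mean trend (adjusted p = 0.0578). With equal totals the value was 0.46.

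EDEM1, a mannosidase-like protein that draws misfolded glycoproteins out of the folding cycle towards degradation, had the most even values of the 7. NM_014674 (chromosome 3, 5187673 to 5219957, plus strand, 12 exons) had 1633, 1614 and 1567 normalized counts with the scrambled hairpin, against 2517, 2561 and 2556 with the ABL1 hairpin. The SD was 2.13% of the mean in the scrambled group and 0.957% in the knockdown group. The log2 change was 0.67 (SE 0.07, 95% interval 0.52 to 0.81, limma adjusted p = 4.76e-06). Exons of the antisense gene AC026202.3 cover 10.2% of its bases.

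**Figure D2:**
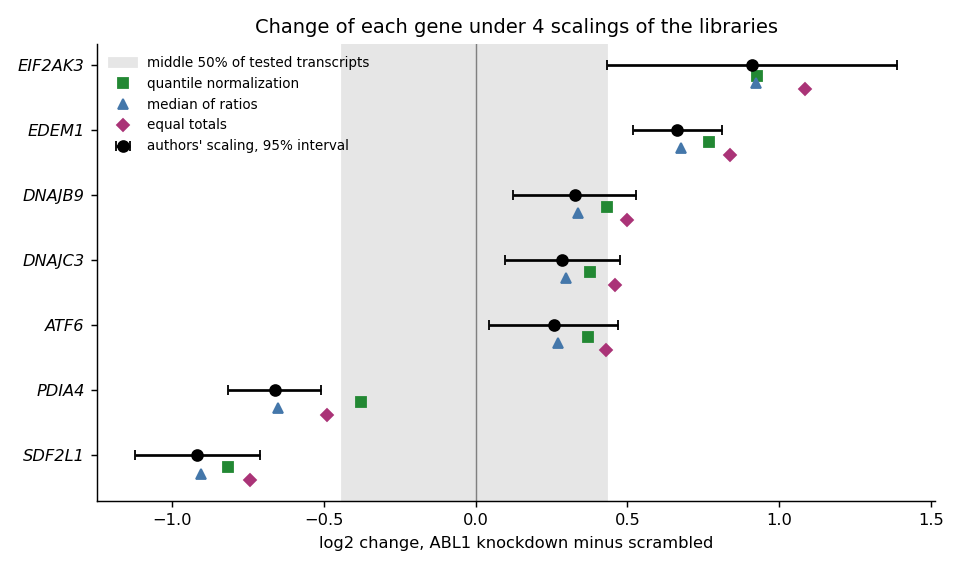
Log2 change (knockdown minus scrambled) of the 7 genes with the authors' scaling (black, with 95% interval) and with 3 other scalings, over the middle 50% of all tested transcripts (grey, -0.44 to 0.43). DNAJB9, DNAJC3 and ATF6 lie inside the grey band with the authors' scaling, and no gene changes direction between scalings.

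Per kilobase of transcript, PDIA4 was the highest of the 7 in the scrambled libraries, with 4749 ± 221 normalized counts (SD, n = 3). SDF2L1 followed with 1401 ± 158. DNAJB9 (262 ± 14.7) and EDEM1 (261 ± 5.56) did not differ beyond their spread. DNAJC3 (158 ± 4.92), ATF6 (106 ± 11.7) and EIF2AK3 (29.6 ± 10.9) were lower still, each apart from the next by more than their SDs. In the knockdown libraries EDEM1, with 414 ± 3.96 per kilobase, was above DNAJB9, with 329 ± 32.9, and the rest of the order was as in the scrambled libraries. There SDF2L1 had 739 ± 35.4 and PDIA4 3002 ± 129 per kilobase. Lengths are those of the matched GENCODE 29 models. How the authors assigned reads that fit several transcripts of a gene is not stated, and this bears on each of these levels.

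Beyond the 7 genes, 98 further genes of the pathway were listed, of which 54 had a tested transcript. Of these 20 rose, 15 fell and 19 did not pass, so that 64.8% were called beside 51.9% of all transcripts. Their median log2 change was -0.05, and that of all tested transcripts was 0.0018. With equal totals the counts became 24 rises and 12 falls, and with quantile normalization 25 and 14. Each list with 2 or more calls held both rises and falls. The shares of 64.8% and 51.9% are not like for like. Listed genes entered by their most abundant tested transcript, all transcripts include less abundant ones, and the lists were chosen with earlier results known.

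**Figure D3:**
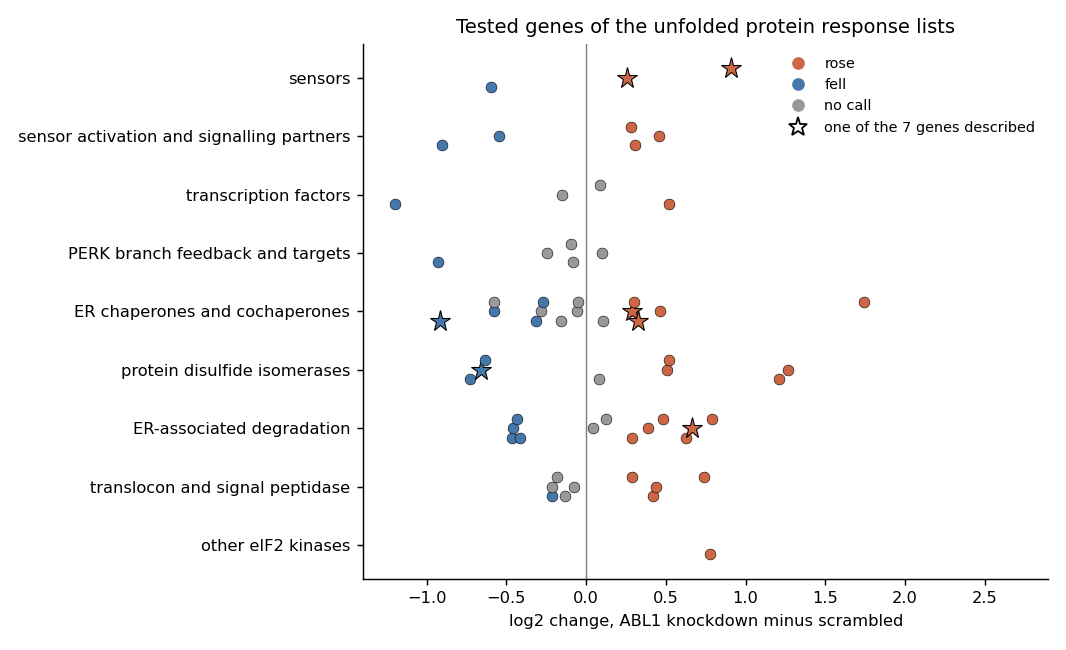
Log2 change (knockdown minus scrambled) of each tested gene of the pathway, by list. Stars are the 7 genes described, orange rose, blue fell and grey did not pass, and the lists of chaperones, isomerases and degradation genes hold both rises and falls.

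Of 4 tested transcription factors of the pathway 1 rose and 1 fell, and of 5 tested PERK branch genes 0 rose and 1 fell. ATF4, the factor translated when eIF2 is phosphorylated, had 56.9 ± 8.01 normalized counts with the scrambled and 51.5 ± 10.3 with the ABL1 hairpin (log2 change -0.15, limma adjusted p = 0.597), and with equal totals the value was 0.022. CREB3, an ER-membrane factor of the ATF6 type, rose by 0.52 on the log2 scale, and its relative CREB3L1 fell by 1.20. Of the PERK branch genes, ERO1A, the oxidase that recharges disulfide isomerases, fell by 0.93 (limma adjusted p = 4.07e-06). PPP1R15A, the phosphatase subunit that reverses the PERK mark, had a log2 change of -0.08 (adjusted p = 0.566). XBP1 and DDIT3 were not analysed here.

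Among ER chaperones and cochaperones 5 of 15 rose and 4 fell, SDF2L1, DNAJB9 and DNAJC3 included. HSP90B1 (GRP94), an abundant lumenal chaperone, fell from 25772 ± 2605 to 17217 ± 1596 normalized counts (log2 change -0.58, limma adjusted p = 0.000214), or by 0.26 with quantile normalization. HSPA5 (BiP), the chaperone that DNAJB9, DNAJC3 and SDF2L1 work with, had a log2 change of -0.16 (limma adjusted p = 0.0843), with 21859 ± 1138 normalized counts in the scrambled and 19606 ± 530 in the knockdown libraries. Its direction depended on the scaling, with 0.19 under quantile normalization (adjusted p = 0.0148) and 0.018 under equal totals. The J-domain genes DNAJC1 (0.47) and SEC63 (0.30), the latter part of the translocation machinery, rose on the log2 scale as DNAJB9 and DNAJC3 did. MANF, a secreted ER stress protein, fell by 0.31 on the log2 scale, and had -0.14 (adjusted p = 0.150) with equal totals. The call on SEC63 was lost with a variance model without a mean trend (adjusted p = 0.0515), and its value was 0.48 with equal totals.

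Of 8 disulfide isomerase genes 4 rose and 3 fell, PDIA4 among the latter. P4HB (PDI), the founding member, fell beside PDIA4, by 0.73 on the log2 scale (limma adjusted p = 4.28e-06) and by 0.44 with quantile normalization. TXNDC12, a small lumenal thioredoxin protein, fell by 0.63. The membrane-anchored thioredoxins TMX3 (1.27), TMX4 (0.51) and TMX1 (0.52) rose on the log2 scale. The isomerase genes thus fell for PDIA4, P4HB and TXNDC12, and rose for TMX1, TMX3, TMX4 and TXNDC5.

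Of 12 genes of ER-associated degradation 6 rose and 4 fell. With EDEM1 rose ERLIN2 (0.79), part of a membrane complex that delivers substrates for degradation, and UBXN4 (0.63), which recruits the segregase VCP, both on the log2 scale. EDEM3, the paralog of EDEM1, fell by 0.44 (limma adjusted p = 0.00155). SEL1L, the adaptor of the central ubiquitin ligase complex of the ER membrane, fell by 0.47 and the ubiquitin-conjugating enzyme UBE2J1 by 0.46. With equal totals these 3 falls were smaller, at -0.26 for EDEM3 and -0.29 for each of SEL1L and UBE2J1. Of 9 genes of the translocon and signal peptidase, SRPRB (0.74), SEC61A1 (0.44) and SEC61B (0.42) rose, as did SPCS1, and SPCS3 fell by 0.22. That fall of SPCS3 was lost with quantile normalization (-0.10, adjusted p = 0.308), with equal totals (-0.042, adjusted p = 0.672), without a mean trend (adjusted p = 0.0846) and on leaving out scrambled replicate 2 or 3 or knockdown replicate 1 or 3 (adjusted p = 0.0503 to 0.118). With quantile normalization SEC61A1 had 0.72.

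The exact ERSE forms were also looked up for the tested pathway genes. Of 22 genes that rose and had a promoter window, 0 held an exact ERSE or ERSE-II. Of 16 that fell, HSP90B1 held an ERSE and SDF2L1 the ERSE-II. Of 16 that did not pass, 3 held an ERSE, namely CALR, ERO1B and HSPA5. These names follow from the letters and were not picked by their change. DNAJB9, counted among the rises, had only a window inside the gene. With up to 1 mismatch allowed, either form was in 1 gene that rose, 4 that fell and 4 that did not pass. Of all windows, 1.36% then held an ERSE and 1.14% an ERSE-II.

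**Figure D4:**
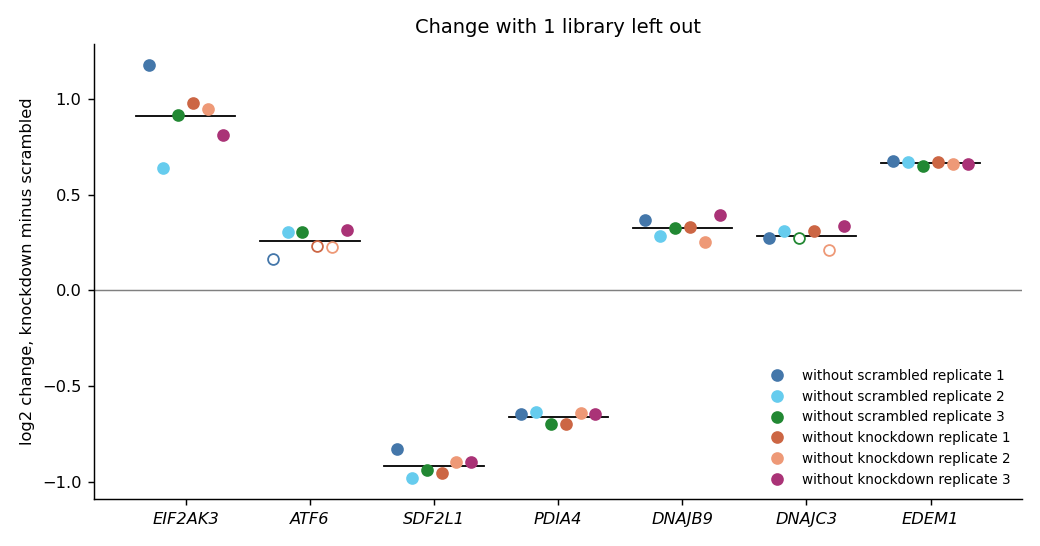
Log2 change (knockdown minus scrambled) of the 7 genes with each library left out in turn (circles, filled where limma's adjusted p was under 0.05) and with all libraries (line). ATF6 and DNAJC3 have 3 and 2 open circles, and EIF2AK3 runs from 0.64 without scrambled replicate 2 to 1.18 without scrambled replicate 1.

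For EIF2AK3 and SDF2L1 the transcripts with the most similar profile were looked up, by Pearson's r of log2 values over the 6 libraries among transcripts at or above the median level. For EIF2AK3 these were UBQLN2 (r = 0.991), BAMBI (0.987) and CXorf40B (0.987). For SDF2L1 they were PHLDA1 (r = 0.9995), IMPA2 (0.9988) and CLDN3 (0.9984). For SDF2L1 the points fall into the 2 groups, so r mostly reflects the difference between them. For EIF2AK3 the scrambled libraries also spread widely (89.7 to 191 normalized counts), so r reflects that spread as well as the group difference. The size of the change is not part of r: CLDN3 fell by 1.69 and IMPA2 by 0.32 on the log2 scale, beside 0.92 for SDF2L1. UBQLN2, BAMBI and CXorf40B had log2 changes of 0.19, 0.35 and 0.27, beside 0.91 for EIF2AK3.

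The libraries held 6651413 to 10487862 counted reads. The targeted gene went from 72.1 ± 1.09 to 11.1 ± 2.33 normalized counts for ABL1 transcript NM_007313 (log2 change -2.62, limma adjusted p = 4.11e-06), while the less abundant NM_005157 rose by 1.15 from 8.74 ± 1.84, and the sum of both fell by 1.33. The rise of NM_005157 was not called on leaving out scrambled replicate 2 (0.99, adjusted p = 0.0501) or knockdown replicate 3 (1.01, adjusted p = 0.0747). The tested hepatocyte markers ran from AFP at 235839 ± 21106 to TTR at 3696 ± 468 normalized counts in the scrambled libraries, with ALB at 84502 ± 5717. FGB, also listed, had a mean under 10 and was not tested. Of 5 tested hepatocyte markers 0 rose and 3 fell, namely ALB (log2 change -0.42), TF (-0.44) and APOB (-0.20), and their summed level was 461664 to 520998 in the scrambled and 395245 to 440537 in the knockdown libraries. Of 6 tested fibroblast markers 4 rose and 1 fell, and their summed level was 8912 to 9908 in the scrambled and 13259 to 14609 in the knockdown libraries. Most of that sum was COL1A2 (means of 7820 scrambled and 11998 knockdown), and the marker that fell was COL1A1 (741 to 365). Of 4 endothelial markers 3 fell and 1 rose (176 to 204 and 125 to 147 summed), and of 3 immune markers 2 fell and 1 rose (5714 to 6331 and 6544 to 7489, nearly all LYZ). Their part in the changes of the 7 genes was not tested. As the RNA came from the Huh7 line, these markers are transcripts measured in that line and not counts of other cell types. In bulk RNA, fewer expressing cells and less RNA per cell cannot be told apart. Normalized totals were 8.65 ± 0.0857 M reads (M for mega) with the scrambled and 7.67 ± 0.137 M reads with the ABL1 hairpin. Scaling to equal totals moved the median log2 change of all transcripts from 0.0018 to 0.17 and the share of rises among calls from 47.2% to 63.6%.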

How the data were processed

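Total RNA was made into short-insert cDNA libraries and sequenced. The submitters' processing notes name build hg38, HTSeq 0.6.1 and HISAT2 2.0.4, and state no annotation, strand setting or normalization. The deposited value is a signal that the authors had scaled: squared and divided by 1 constant of its library (the step), it equals a whole number plus 0.375. Reads recovered in this way were whole, to within 0.05, for 100% of 10191 rows. The normalized count is that number times the library's step relative to the geometric mean of the steps.

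The 8600 transcripts with a mean of at least 10 were tested with limma 3.58.1 (R 4.3.3, lmFit and eBayes with trend). The test was two-sided on the log2 of the normalized count plus 1, and p-values were adjusted by Benjamini-Hochberg over these transcripts. Adding 1 understates changes of low transcripts. The fit was also run on simulated counts with far fewer changed transcripts than were called here, so that run cannot vouch for these calls. Listed genes entered with their most abundant tested transcript. The 7 genes and the lists were chosen with earlier results of these data known. Genes named beyond the 7 were ABL1, ERN1, XBP1, ATF4, DDIT3, HSPA5 and HSP90B1 whatever their values, up to 3 rises and 3 falls per list by smallest p, and the 3 most similar profiles of EIF2AK3 and SDF2L1. SDF2L1's and EDEM1's relatives, PPP1R15A, TXNDC5, SPCS1, marker and motif genes outside the rule were named after their values were seen.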

Additional observations from a re-analysis of the deposited data

How the results depend on the processing

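In 18 alternatives to pseudocount, filter, scaling, variance model, tested value, feature and libraries, SDF2L1, PDIA4, EDEM1, EIF2AK3 and DNAJB9 kept direction and call. DNAJB9 did so narrowly, with a limma adjusted p of up to 0.0495, and EIF2AK3 had up to 0.0394. Without a mean trend in the variance model DNAJC3 (0.29, limma adjusted p = 0.0578) and ATF6 (0.26, adjusted p = 0.119) lost their calls, leaving 3 of the 7 genes as rises. With 1 library left out, the number of rises was 3 to 5. Log2 changes then ran from 0.21 to 0.34 for DNAJC3 and from 0.16 to 0.31 for ATF6. The cause was not tested. Of 717 single-gene values, 693 kept direction and side of the threshold, 20 lost the call and 4 reversed: ATF4 (0.022) and HSPA5 (0.018) with equal totals, HSPA5 (0.19) with quantile normalization, and ABL1 NM_005157, replaced by the sum of both transcripts (-1.33) where rows of a gene were added.

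Whether same-numbered libraries were paired is not stated. Their deviations from the group means correlated at 0.05, 0.08 and 0.08, and those of differently numbered libraries at -0.15 to 0.09. With 3 libraries per group these values cannot settle whether the replicates were paired. With the replicate block 2301 transcripts rose and 2520 fell, and the 7 genes kept 5 rises and 2 falls. Not every library correlated best with its own number. EIF2AK3 had the fewest reads, and its spread among scrambled libraries limits the precision of its change. With voom weights on the recovered reads 2112 transcripts rose and 2352 fell, and the 7 genes kept their calls.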
